A study of Homo sapiens with 4 samples.

Results

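The mitochondrial ribosomal protein (MRP) genes, whose symbols begin with MRPL or MRPS followed by digits, were followed across 4 cultures of MCF10A cells that carried a form of YAP or an empty vector. In the gene annotation of the array, 76 of 19775 genes had such a symbol after 1 pseudogene, MRPL45P2, was left out. One of them, MRPL20-AS1, is an antisense gene and is described apart. The other 75 encode proteins, 48 with MRPL symbols, all for the large subunit, and 27 with MRPS symbols, for the small subunit except MRPS18A and MRPS30, which lie in the large one. Each gene was read from 1 probe set, the one with the highest mean intensity over the 4 arrays among those that name only that gene. All 75 counted as measured, which means a mean intensity of at least 113.6 and holds for 12759 of the 19775 genes. The lowest value of any MRP gene on any array was 844.6, so no member came near the floor of 72.9 below which intensities were not told apart. MRPL53 and MRPS24 lay only on probe sets that name several genes and were not used.

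Mitochondria carry their own ribosomes, which translate the few messenger RNAs of mitochondrial DNA, all of them for subunits of the respiratory chain and ATP synthase. The ribosomal RNAs of these ribosomes come from mitochondrial DNA, while the proteins are encoded in the nucleus, made in the cytosol and imported. Many of the proteins descend from bacterial ribosomal proteins and others are particular to mitochondria, and because they act in 1 complex, their genes are often studied as a group.

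MCF10A is a non-tumorigenic line of human mammary epithelial cells. The cells were infected with retrovirus made from the plasmid pQCXIH. The insert was the wild-type protein (YAP-WT), the mutant YAP-S94A, the mutant YAP-W1W2 or nothing (vector), and all 4 cultures grew in medium with horse serum, EGF, hydrocortisone, insulin and cholera toxin. YAP is a coactivator of transcription that the Hippo pathway restrains, and it reaches DNA mainly through the TEAD factors. YAP-S94A carries a change in the TEAD-binding region, and YAP-W1W2 has both WW domains mutated. Each group was 1 culture on 1 array, so no difference below has a replicate check, and no test, standard error or p-value was computed. The comparisons of the 3 YAP forms with vector share the same vector array.

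The 2% trimmed mean intensities ran from 458.4 to 503.3 over the arrays. The median measured gene was higher than in vector by a log2 value of 0.14 in YAP-WT cells, 0.14 in YAP-S94A cells and 0.10 in YAP-W1W2 cells, so differences of the MRP genes are also given relative to this shift. The 3 probe sets of YAP1 gave no check of the labels, since their differences from vector ran from −0.24 to 0.13 with YAP-WT, 0.04 to 0.60 with YAP-S94A and 0.15 to 0.52 with YAP-W1W2, and whether they lie within the constructs is not known here. Among the control probe sets, the spiked bioB transcript differed from vector by −0.56 in YAP-WT cells, −0.77 in YAP-S94A cells and −1.04 in YAP-W1W2 cells (log2). In the same order bioC differed by −0.38, −0.70 and −0.83, bioD by −0.27, −0.47 and −0.55 and cre by 0.02, 0.11 and 0.08. The GAPDH controls differed by 0.22, 0.44 and 0.44 in this order, and the actin controls by 0.43, 0.68 and 0.80. The 3′ to 5′ signal ratio of GAPDH, a sign of RNA integrity, was 1.02, 1.04 and 1.02 in the YAP cultures and 0.961 in vector. That of actin ran the other way, at 1.07, 1.01 and 0.964 in the YAP cultures and 1.16 in vector. The basal epithelial markers KRT5 and KRT14 were bright on all arrays, at 30482 to 39724, and the 5 basal markers with a probe set of their own summed to 96704, 92310 and 90395 in the YAP cultures and 85970 in vector. Of 8 luminal markers 5 were measured, and the summed intensity of the list was 33433 in YAP-WT cells, 27285 in YAP-S94A cells and 56056 in YAP-W1W2 cells, against 12528 in vector. Most of it came from KRT8 and KRT18, while GATA3 had 7108.3, 1458.2 and 4722.6 in the YAP cultures and 2679.1 in vector, so it was lower with YAP-S94A, and PGR lay at 52.8 to 103.2. Of 5 fibroblast markers 2 were measured, with sums of 5168, 951 and 1239 in the same YAP cultures and 9936 in vector, where DCN gave 9343.9 of it. The other, COL1A1, had 1105.4, 409.9 and 719.2 in the YAP cultures and 451.7 in vector. Of the 5 immune markers 3 had a probe set of their own and 1, CD14, was measured. CD14 had 61.7, 143.9 and 19.3 in the YAP cultures and 311.9 in vector. CD3E, not counted as measured, had 256.1, 52.7 and 49.9 in the YAP cultures and 20.3 in vector. PTPRC, which defines leukocytes, stayed at 21.7 to 74.6. Of the 5 endothelial markers 1 was measured, PECAM1, with 680.9, 481.8 and 576.8 in the YAP cultures and 472.6 in vector. The part of these differences in the MRP values was not tested. In bulk RNA, fewer cells of a type and less RNA per cell cannot be told apart.

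MRP transcripts were most often highest in the YAP-S94A culture. The median MRP gene was higher than in vector by 0.44 (log2) with YAP-S94A, against 0.14 for all measured genes. Of the 75, 68 lay above their vector value (90.7%, against 59.3% of all measured genes and 65.4% of genes within the MRP intensity range). In YAP-WT the median was 0.23 and 55 lay above vector (73.3%, against 59.9% and 66.1%). With YAP-W1W2 the median was 0.23 and 59 lay above vector (78.7%, against 56.1% and 60%). Relative to the median measured gene, the MRP medians stood at 0.10 in YAP-WT cells, 0.30 in YAP-S94A cells and 0.12 in YAP-W1W2 cells. Against the 4809 genes whose mean intensity lay within the range of the MRP genes, 1010 to 10517, they stood at 0.05, 0.23 and 0.08 in the same order. The displacement was thus largest for YAP-S94A.

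The changes were small for single genes. The ratio of the highest to the lowest of the 4 arrays had a median of 1.53 over the MRP genes and 1.73 over all measured genes. Over genes within the MRP intensity range it was 1.57, near that of the MRP genes. For 35 MRP genes the ratio stayed under 1.5 (46.7%, against 31.8% of all measured genes and 42.3% in the same range). At least 1.5-fold higher than in vector were 29 MRP genes with YAP-S94A (38.7%), where the share was 23.6% over all measured genes and 25% over those in the same intensity range. None was 1.5-fold lower there, against 14.4% and 8.9%. In YAP-WT 10 were 1.5-fold higher (13.3%), with 20.9% over all measured genes and 19.7% in the same range, and 1 was lower, with 11.3% and 5.47%. In YAP-W1W2 14 were 1.5-fold higher (18.7%), with 24% over all measured genes and 23.2% in the same range, and 2 were lower, with 17.3% and 12.1%. For YAP-WT and YAP-W1W2 the shares of changed MRP genes thus lay below those of genes at large in both directions. When the median gene of each array was set equal, the counts of higher against lower MRP genes became 4 and 3 with YAP-WT and 16 and 2 with YAP-S94A. After quantile normalization YAP-W1W2 had 9 higher and 4 lower. The shares of all measured genes above were counted on the values as deposited, and these later counts have none beside them. Whether the higher share with YAP-S94A remains under these settings was not tested.

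**Figure D1:**
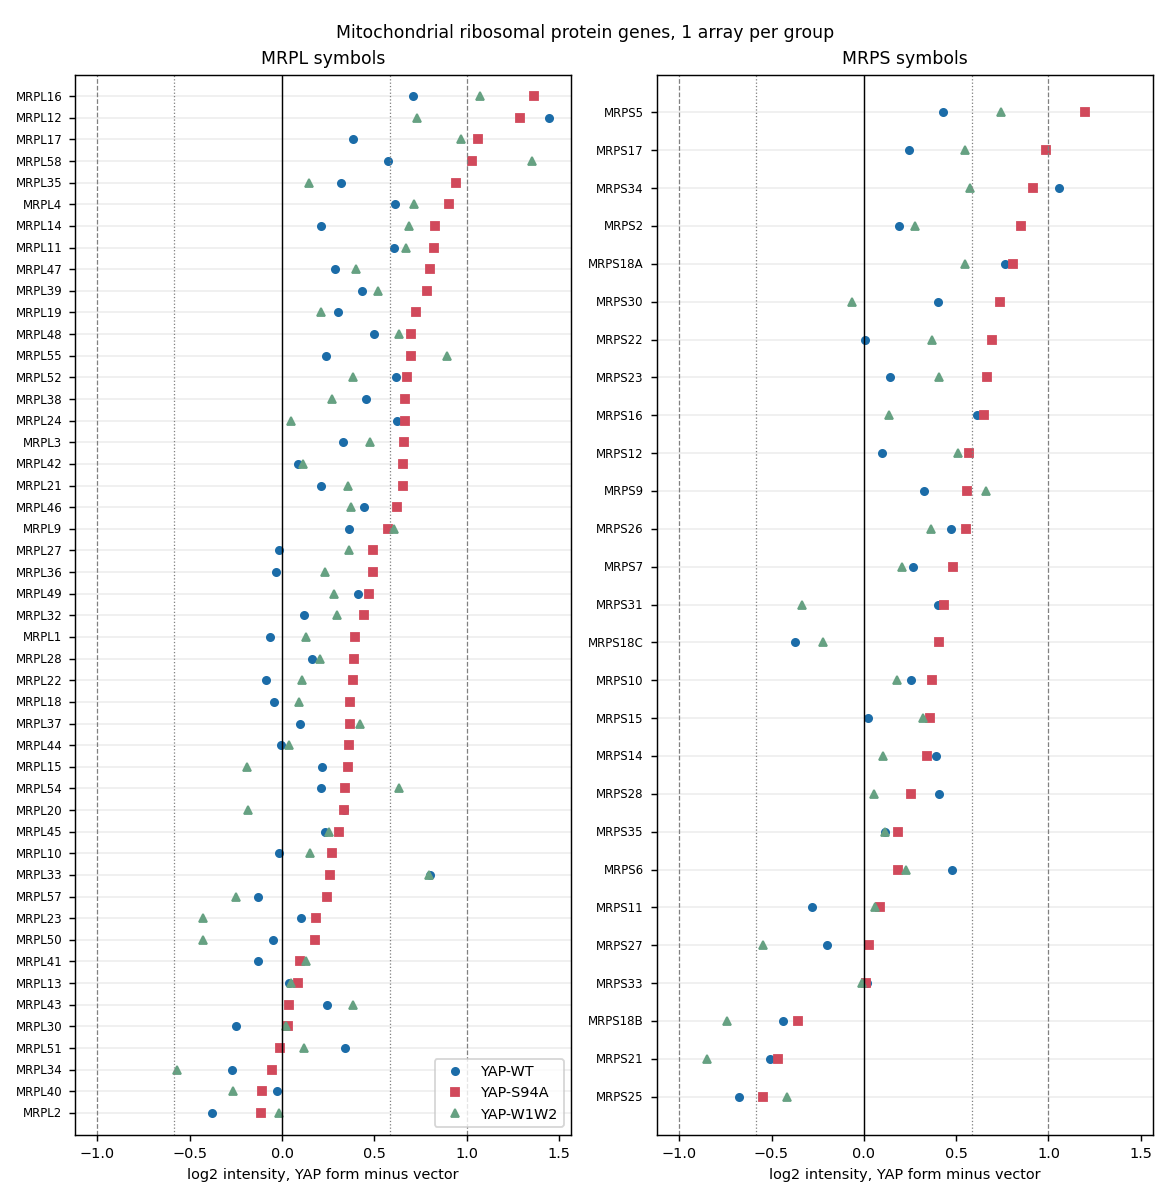
Differences of the 75 MRP genes from the vector array, on the log2 scale, with large-subunit (MRPL) and small-subunit (MRPS) symbols in separate panels and 1 row per gene. Points stand for YAP-WT, YAP-S94A and YAP-W1W2, each 1 array without replicates. Most YAP-S94A points lie right of the line at 0 (68 of 75, or 90.7%, against 59.3% of all measured genes). The widest single difference is that of MRPL12 with YAP-WT (1.44).

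**Figure D2:**
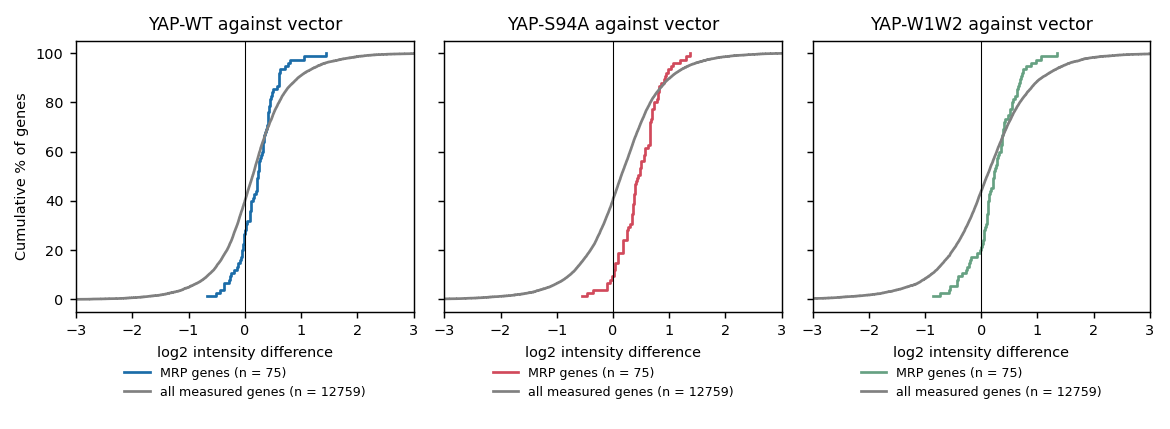
Cumulative percentage of genes against the log2 intensity difference from vector, for the 75 MRP genes and for all 12759 measured genes, with each YAP form. The MRP curve is steeper than the curve of all genes in each panel and is displaced to the right most with YAP-S94A, where its median is 0.44 against 0.14.

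As plotted by array, 6 genes were at least 2-fold higher than in vector in some YAP culture, and none was 2-fold lower. These were 2 with YAP-WT (9.11% of all measured genes were), 5 with YAP-S94A (10.3%) and 2 with YAP-W1W2 (11.4%), while 4.95%, 6.53% and 8.4% of all measured genes were 2-fold lower. With the median gene set equal, 1 gene with YAP-WT and 3 with YAP-S94A were 2-fold higher, and with centring on genes of like intensity 1, 2 and 1 in the 3 YAP cultures. Among the 40 genes with a measured probe set whose name lacks _s_at and _x_at, 1, 1 and 2 were 2-fold lower in the same cultures. MRPL12, a protein of the flexible stalk that meets translation factors and which also binds the mitochondrial RNA polymerase, had intensities of 3277.4 in YAP-WT cells, 2946.5 in YAP-S94A cells and 2001.8 in YAP-W1W2 cells, against 1204.3 in vector. It was the MRP gene with the largest difference, 2.72-fold in YAP-WT cells, 2.45-fold in YAP-S94A cells and 1.66-fold in YAP-W1W2 cells. MRPS34, a small-subunit protein particular to mitochondria that is needed for stable small-subunit ribosomal RNA, ran in the same order, with 1976.8 in YAP-WT cells, 1796.4 in YAP-S94A cells and 1415.1 in YAP-W1W2 cells, against 950.7 in vector. These were folds of 2.08, 1.89 and 1.49, and the YAP-S94A culture was not the highest for either gene.

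The other 4 followed a different order, with YAP-WT the lowest of the YAP cultures. MRPL16, a homolog of the bacterial protein beside the tRNA sites, had 1998.9 in YAP-WT cells, 3155.5 in YAP-S94A cells and 2575.4 in YAP-W1W2 cells, against 1223.7 in vector, which are folds of 1.63, 2.58 and 2.10. MRPL17, whose bacterial homolog borders the exit tunnel, had 2366.9, 3792.6 and 3558.7 in the same YAP cultures and 1815.2 in vector, or 1.30-, 2.09- and 1.96-fold. MRPS5, whose bacterial homolog lies at the entry of the messenger RNA, had 1937.3, 3311.4 and 2409.4 with YAP-WT, YAP-S94A and YAP-W1W2 and 1441.0 in vector, or 1.34-, 2.30- and 1.67-fold. MRPL58, a peptidyl-tRNA hydrolase built into the large subunit that frees stalled ribosomes, was highest with YAP-W1W2, with 2121.4 in YAP-WT cells, 2904.7 in YAP-S94A cells and 3637.7 in YAP-W1W2 cells, against 1426.0 in vector. Its folds were 1.49, 2.04 and 2.55. All 6 genes had their lowest value in vector.

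**Figure D3:**
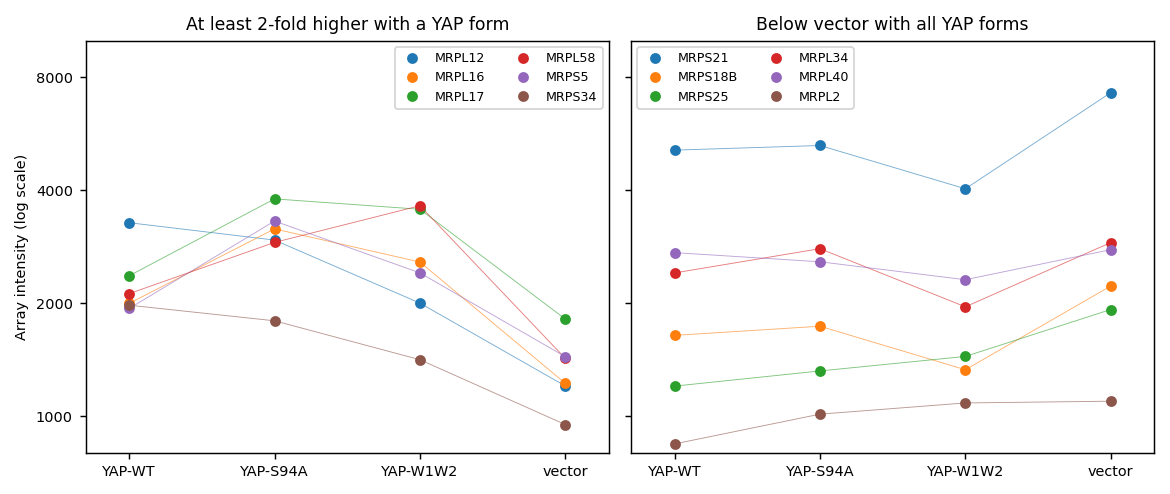
Array intensity on a log scale in the 3 YAP cultures and vector, 1 array each, with thin lines joining the points of a gene. Left, the 6 MRP genes at least 2-fold higher in a YAP culture than in vector, which all have their lowest point in vector (MRPS34 at 950.7). Right, the 6 MRP genes below vector in all 3 YAP cultures, with MRPS21 at 7273.6 in vector.

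The promoters of these 6 genes are shown as examples of where MRP transcription starts, from 120 bases before to 30 after the annotated start, from RefSeq on GRCh38.p14 and written 5′ to 3′ along the gene. MRPL12 is on the plus strand at chr17:81703247-81703396, MRPL16 on the minus strand at chr11:59810749-59810898 and MRPL17 on the minus strand at chr11:6683311-6683460. MRPL58 is on the plus strand at chr17:75012550-75012699, MRPS34 on the minus strand at chr16:1773105-1773254 and MRPS5 on the minus strand at chr2:95121779-95121928. MRPL52, on the plus strand at chr14:22829767-22829916, and MRPS18A, on the minus strand at chr6:43687762-43687911, are added because they hold the letters of both motifs counted below. Capitals mark CCGGAAG, the core that ETS factors such as GABPA bind, AAGATGGCG, which YY1 binds, and the palindromic motif of NRF1, on either strand.
MRPL12: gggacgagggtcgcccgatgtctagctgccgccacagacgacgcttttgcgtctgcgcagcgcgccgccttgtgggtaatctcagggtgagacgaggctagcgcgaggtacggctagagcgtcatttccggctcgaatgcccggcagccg
MRPL16: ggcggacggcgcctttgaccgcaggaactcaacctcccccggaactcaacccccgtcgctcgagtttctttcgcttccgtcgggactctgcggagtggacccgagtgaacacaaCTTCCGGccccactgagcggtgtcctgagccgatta
MRPL17: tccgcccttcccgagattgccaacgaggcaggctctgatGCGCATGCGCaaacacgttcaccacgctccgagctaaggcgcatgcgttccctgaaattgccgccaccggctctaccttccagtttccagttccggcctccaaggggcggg
MRPL58: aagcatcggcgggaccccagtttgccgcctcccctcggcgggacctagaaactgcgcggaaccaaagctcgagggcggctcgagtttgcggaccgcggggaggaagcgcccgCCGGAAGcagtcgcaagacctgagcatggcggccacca
MRPS34: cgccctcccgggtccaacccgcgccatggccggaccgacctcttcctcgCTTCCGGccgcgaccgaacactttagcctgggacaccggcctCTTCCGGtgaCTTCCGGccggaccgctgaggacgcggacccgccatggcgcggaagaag
MRPS5: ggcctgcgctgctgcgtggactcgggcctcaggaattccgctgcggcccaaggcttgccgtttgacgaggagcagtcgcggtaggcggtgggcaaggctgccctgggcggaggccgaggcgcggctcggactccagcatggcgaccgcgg
MRPL52: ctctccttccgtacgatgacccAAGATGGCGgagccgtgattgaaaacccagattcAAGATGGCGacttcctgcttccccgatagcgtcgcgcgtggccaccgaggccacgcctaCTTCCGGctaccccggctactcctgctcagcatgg
MRPS18A: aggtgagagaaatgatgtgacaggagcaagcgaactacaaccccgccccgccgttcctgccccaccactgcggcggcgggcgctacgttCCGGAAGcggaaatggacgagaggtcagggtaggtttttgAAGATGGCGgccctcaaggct

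A pair of short sequences was frequent at MRP starts. Of the 67 MRP genes with a RefSeq promoter of 300 bases, 250 before and 50 after the start, 28 held CCGGAAG on either strand (41.8%), against 18.8% of the 9825 measured protein-coding genes with such a promoter. AAGATGGCG was in 12 (17.9%), against 3.91% of those genes. In 9 of the 12 a copy lay after the annotated start, not before it. Either was in 36 (53.7%, against 21.8%), both were in 4, and in none did they overlap. Among the other spellings, the NRF1 motif was in 11.9% against 11.4%, its shorter form TGCGCA in 20.9% against 13.3%, the E-box CACGTG that MYC binds in 8.96% against 10.1%, and GGAATG, which TEAD factors bind, in 14.9% against 11%. In all 13 spellings were searched, and a match is only a run of letters in this window. Among the 6 genes above, MRPS34 holds 3 copies of the ETS letters, MRPL58 2 and MRPL16 1, while MRPL12, MRPL17 and MRPS5 hold none.

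Genes with CCGGAAG had higher medians than those without it in each YAP culture, and genes with AAGATGGCG only with YAP-S94A. These gaps were not tested. The median difference from vector of the 28 with CCGGAAG was 0.31 (log2) in YAP-WT cells, 0.52 in YAP-S94A cells and 0.37 in YAP-W1W2 cells. For the 39 without it, the medians were 0.21, 0.47 and 0.23 in the same order. The 12 genes with AAGATGGCG had medians of 0.19, 0.56 and 0.21, and the 55 without it 0.24, 0.47 and 0.28.

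The YAP-S94A array held the highest value for 52 of the 75 MRP genes (69.3%), against 30.5% of all measured genes and 35.6% of those in the same intensity range. YAP-WT held it for 9, YAP-W1W2 for 8 and vector for 6. The lowest value was in vector for 48 (64%), against 39.0% of all measured genes and 46.0% of those in the same intensity range. It was with YAP-WT and YAP-W1W2 for 13 each, and with YAP-S94A for 1, MRPL51. The order YAP-S94A, YAP-W1W2, YAP-WT, vector from high to low was shown by 22 MRP genes (29.3%) and 9.94% of all measured genes. Above vector in all 3 YAP cultures were the same 48 MRP genes (64%, against 38.7% of all measured genes and 46.0% in the same range). Below vector in all 3 were 6 (8%, against 22.6% and 19.2%). Under the other settings with 75 genes, 40 to 52 were highest with YAP-S94A, with 21.7% to 30.5% of all measured genes. Lowest in vector were 33 to 48, with 26.6% to 39.0% of all genes counted under these settings. After quantile normalization the lowest value was in vector for 35 (46.7%, against 33.1%). The median MRP intensity was 2687 in YAP-WT cells, 3155.5 in YAP-S94A cells and 2494.4 in YAP-W1W2 cells, against 2223.5 in vector.

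The YAP forms were also compared with each other, without the vector array; both comparisons with YAP-S94A share its array. YAP-S94A exceeded YAP-WT for 64 of 75 genes (85.3%, against 51.1% of all measured genes). The median was 0.23 (log2), against 0.01 for all measured genes. Only 9 were 1.5-fold higher (12%, with 13.9% over all measured genes and 10.5% in the same intensity range) and none was lower (15.1% and 10.8%), so the displacement consisted mostly of small differences. These 9 were MRPS18C (0.78), MRPS5 (0.77), MRPS17 (0.74), MRPS22 (0.69), MRPL17 (0.68), MRPL16 (0.66), MRPS2 (0.66), MRPL35 (0.63) and MRPL14 (0.62). MRPL33, a homolog of a small bacterial large-subunit protein, was the furthest in the other direction, at −0.55.

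YAP-W1W2 was below YAP-S94A for 62 of 75 genes (82.7%, against 56.9% of all measured genes). The median was −0.25, against −0.07 for all measured genes. With the median gene set equal, the MRP median was −0.13. None was 1.5-fold higher (11.9% of all measured genes and 7.53% in the same range were). Lower by 1.5-fold were 7 (9.33%), a share near the 13.2% of all measured genes and the 8.09% in the same range. MRPL35 and MRPS30, which despite its symbol sits in the large subunit, were lowest at −0.80 each, followed by MRPS31 (−0.77), MRPS18C (−0.63), MRPL24 (−0.62), MRPL23 (−0.61) and MRPL50 (−0.61). Under that setting, 1 was 1.5-fold higher and 3 were lower.

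Between YAP-W1W2 and YAP-WT, no direction held for the list across all settings. Of the 75 genes 42 were higher with YAP-W1W2 (56%, against 46.2% of all measured genes). The median was 0.05, against −0.04 for all measured genes. It was 0.18 with the median gene set equal, and just below 0 when probe sets were averaged or those with _s_at and _x_at names left out. At 1.5-fold, 3 were higher and 2 lower. Of all measured genes 11.1% were higher and 15.2% lower, and in the same intensity range 6.22% and 10.4%. The 3 were MRPL58 (0.78), MRPL55 (0.66) and MRPL17 (0.59), and the 2 were MRPS31 (−0.74) and MRPL12 (−0.71). A further measured probe set of MRPS31 went the other way, with 1090.3 in YAP-W1W2 cells and 819.9 in YAP-WT cells. With the median gene set equal, the 2 lower genes became 1.

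The medians of genes with MRPL and with MRPS symbols lay close together. Over the 48 MRPL genes the median difference from vector was 0.22 in YAP-WT cells, 0.46 in YAP-S94A cells and 0.26 in YAP-W1W2 cells, and over the 27 MRPS genes 0.24, 0.43 and 0.18. YAP-S94A was highest for 34 of the 48 (70.8%) and for 18 of the 27 (66.7%), against 30.5% of all measured genes. The 47 proteins with a bacterial homolog had medians of 0.24, 0.48 and 0.21, and the 28 particular to mitochondria 0.22, 0.40 and 0.26. Neither split of the genes thus gave medians more than 0.1 apart in any YAP culture.

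Among other large-subunit genes, MRPL33 had 12928.9 in YAP-WT cells, 8851.2 in YAP-S94A cells and 12881.2 in YAP-W1W2 cells, against 7407.2 in vector. It had the highest mean intensity of the 75, which does not rank transcripts across probe sets, and YAP-S94A was the lowest of its YAP cultures. MRPL55, the homolog of a bacterial protein that bridges the subunits, had 1705.6 in YAP-WT cells, 2348.7 in YAP-S94A cells and 2686.1 in YAP-W1W2 cells, against 1447.8 in vector, so it was 1.86-fold higher with YAP-W1W2. MRPL3, whose bacterial homolog reaches the peptidyl transferase centre, had 8816.7, 11088.2 and 9753.5 in the same YAP cultures and 7022.0 in vector. MRPL51 was the gene with its lowest value with YAP-S94A, at 9290.6 in YAP-WT cells, 7266.9 in YAP-S94A cells and 7944.3 in YAP-W1W2 cells, against 7326.6 in vector. Its YAP-S94A and vector values differ by a log2 value of only −0.01.

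MRPL10, a stalk-base protein, had 1193.6 in YAP-WT cells, 1455.1 in YAP-S94A cells and 1342.7 in YAP-W1W2 cells, against 1207.8 in vector. MRPL44, which resembles RNase III and whose mutations cause infantile cardiomyopathy, had 1158.0, 1495.1 and 1196.6 in the YAP cultures and 1164.8 in vector. MRPL28 had 1206.2, 1415.4 and 1242.0 in the YAP cultures and 1079.2 in vector. In these genes, among the 5 with the lowest mean intensity, YAP-S94A was highest on the probe set used, while MRPL2, also among the 5, was highest in vector. A further measured probe set of MRPL44 had 951.3 in YAP-WT cells, 584.2 in YAP-S94A cells and 501.2 in YAP-W1W2 cells, against 660.3 in vector. On that probe set YAP-S94A was thus below vector. MRPL36, a zinc-binding homolog of a small bacterial protein, was also highest with YAP-S94A, with 6030.9 in YAP-WT cells, 8674.1 in YAP-S94A cells and 7248.8 in YAP-W1W2 cells, against 6165.0 in vector.

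Of the small-subunit genes, MRPS15, a homolog of a bacterial protein that binds ribosomal RNA, was the brightest, with 9025.5 in YAP-WT cells, 11410.4 in YAP-S94A cells and 11131.6 in YAP-W1W2 cells, against 8901.2 in vector. MRPS33 hardly varied, between 2950.6 and 3007.6, a ratio of 1.02. The paralogs of bacterial S18 went different ways. MRPS18A, which lies in the large subunit, had 1680.8 in YAP-WT cells, 1732.7 in YAP-S94A cells and 1445.1 in YAP-W1W2 cells, against 989.2 in vector, or log2 differences of 0.76, 0.81 and 0.55. MRPS18B had 1642.7, 1737.7 and 1330.8 in the YAP cultures and 2223.5 in vector, or −0.44, −0.36 and −0.74. MRPS18C had 3190.7, 5477.7 and 3540.9 in the YAP cultures and 4125.9 in vector, so only YAP-S94A exceeded vector, by 0.41. MRPS18A was thus above vector and MRPS18B below it in all 3 YAP cultures, although a further MRPS18B probe set read 0.25, 0.08 and −0.43.

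Below vector in all 3 YAP cultures, on the probe sets used, were MRPL2, MRPL34, MRPL40, MRPS18B, MRPS21 and MRPS25. MRPS21, a homolog of a small bacterial protein, had 5113.5 in YAP-WT cells, 5261.4 in YAP-S94A cells and 4035.4 in YAP-W1W2 cells, against 7273.6 in vector, and was 1.80-fold lower with YAP-W1W2. MRPS25, a small-subunit protein particular to mitochondria, had 1203.7, 1321.0 and 1443.8 in the YAP cultures and 1925.2 in vector, and was 1.60-fold lower with YAP-WT. MRPS21 and MRPS18B with YAP-W1W2 and MRPS25 with YAP-WT were the calls at 1.5-fold.

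The other 3 differed less. MRPL34 had 2408.7 in YAP-WT cells, 2795.2 in YAP-S94A cells and 1957.3 in YAP-W1W2 cells, against 2902.1 in vector. MRPL40 had 2728.2, 2579.4 and 2311.0 in the YAP cultures and 2778.5 in vector. MRPL2, whose bacterial homolog lies near the peptidyl transferase centre and which was the dimmest MRP gene, had 844.6, 1013.6 and 1085.7 in the YAP cultures and 1097.4 in vector. Its YAP-W1W2 and vector values differ by a log2 value of only −0.02. A further measured MRPL2 probe set read −0.16, 0.04 and −0.02 in the YAP cultures, so it was not below vector with YAP-S94A. MRPS27, an RNA-binding protein with pentatricopeptide repeats, and MRPL50 were below vector with YAP-WT and YAP-W1W2 and above it with YAP-S94A. MRPS27 had 3079.2 in YAP-WT cells, 3594.9 in YAP-S94A cells and 2415.3 in YAP-W1W2 cells, against 3530.9 in vector. MRPL50 had 2219.4, 2601.9 and 1706.7 in the YAP cultures and 2298.8 in vector. A further measured probe set of MRPL50 was below vector with YAP-S94A too, with log2 differences of −0.52, −0.07 and −0.96 in the YAP cultures.

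For 37 of the 75 genes the array held several probe sets, and for 28 of these more than 1 was measured. The measured probe sets of a gene all pointed the same way for 14 of the 28 in YAP-WT cells, 13 in YAP-S94A cells and 15 in YAP-W1W2 cells. In 5 genes, MRPL19, MRPL30, MRPL42, MRPS23 and MRPS5, 1 probe set was at least 1.5-fold higher and another at least 1.5-fold lower than in vector in the same YAP culture. MRPS23 had 2365.6 in YAP-WT cells, 3402.3 in YAP-S94A cells and 2848.5 in YAP-W1W2 cells, against 2145.2 in vector, while its dimmer probe set had 193.7, 135.0 and 188.2 in the YAP cultures and 354.7 in vector. MRPL42 had 3135.8 in YAP-WT cells, 4653.7 in YAP-S94A cells and 3196.9 in YAP-W1W2 cells, against 2957.6 in vector, with its dimmest probe set at 173.3, 278.7 and 110.3 in the YAP cultures and 426.1 in vector. The second brightest probe set of MRPL42 gave 0.10, 0.40 and −0.003 (log2) in the YAP cultures, beside 0.08, 0.65 and 0.11 for the one used. The values given for the 5 genes are therefore those of the brightest probe set, which some further probe sets share and others do not.

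MRPL19 had 1341.8 in YAP-WT cells, 1797.1 in YAP-S94A cells and 1261.1 in YAP-W1W2 cells, against 1088.0 in vector, and its dimmest probe set was lower than in vector in all 3, by −0.85, −1.28 and −1.74 (log2). MRPL30 had 1980.6, 2413.7 and 2393.8 in the YAP cultures and 2357.3 in vector. Its further probe sets ran from −0.71 to 0.81 with YAP-S94A. For MRPS5 the second brightest probe set gave 0.70, 0.98 and 0.85, like the one used, and only one at 92.0 to 145.1 differed, with −0.65 with YAP-W1W2. Averaged over probe sets, the median MRP gene with YAP-S94A was 0.36 above vector. Some MRP genes have processed pseudogenes, and where probe sets may match several sequences, the share of each copy in the signal cannot be told apart. The antisense gene MRPL20-AS1 had 411.8 in YAP-WT cells, 321.5 in YAP-S94A cells and 567.3 in YAP-W1W2 cells, against 407.4 in vector, so it did not follow the protein genes.

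A list of 5 measured genes held other proteins of the mitochondrial ribosome, whose symbols do not begin with MRP, and OXA1L, to which the ribosome docks. All 5 were highest with YAP-S94A, as were 30.5% of all measured genes and 35.6% of those within the MRP intensity range. Their median difference from vector was 0.22 in YAP-WT cells, 0.55 in YAP-S94A cells and 0.02 in YAP-W1W2 cells. DAP3, a GTP-binding small-subunit protein, had 4156.7 in YAP-WT cells, 5187.4 in YAP-S94A cells and 3417.6 in YAP-W1W2 cells, against 3280.2 in vector. PTCD3, a small-subunit protein with pentatricopeptide repeats, had 1265.2, 1857.9 and 1285.8 in the YAP cultures and 1269.4 in vector, so YAP-S94A alone stood out. GADD45GIP1, a large-subunit protein, had 1385.1, 1543.3 and 1130.3 in the YAP cultures and 843.3 in vector. OXA1L, the insertase that the ribosome docks on, had 3740.7, 5144.1 and 3464.4 in the YAP cultures and 4928.6 in vector.

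Genes for assembly of the mitochondrial ribosome and modification of its RNA had medians near those of the MRP genes. Over 26 measured genes the median was 0.20 in YAP-WT cells, 0.51 in YAP-S94A cells and 0.35 in YAP-W1W2 cells, and with YAP-S94A 12 were 1.5-fold higher (46.2%, with 23.6% over all measured genes) and 1 was lower (3.85%, with 14.4%). PNPT1, a polynucleotide phosphorylase of mitochondria, had 2292.4 in YAP-WT cells, 4098.8 in YAP-S94A cells and 3124.0 in YAP-W1W2 cells, against 1632.3 in vector, or 2.51-fold higher with YAP-S94A. TFB1M, which methylates the small-subunit ribosomal RNA, had 695.9, 1335.7 and 873.1 in the YAP cultures and 668.2 in vector. MTG1, a GTPase of large-subunit assembly, had 777.8, 950.1 and 765.5 in the YAP cultures and 483.0 in vector. MRM1, a methyltransferase of the large-subunit ribosomal RNA, was dim, with 150.6, 264.8 and 340.8 in the YAP cultures and 109.7 in vector.

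Relative to vector, translation factors and aminoacyl-tRNA synthetases of mitochondria had lower medians than the MRP genes in each YAP culture. Between YAP-S94A and YAP-WT the median of the factors was 0.39 (14 of 14 above 0) and that of the synthetases 0.13 (10 of 18), beside 0.23 for the MRP genes. Of all measured genes 51.1% were above 0 there. Between YAP-W1W2 and YAP-S94A their medians were −0.36 and −0.42, beside −0.25. The 14 measured factors had medians of −0.21 in YAP-WT cells, 0.22 in YAP-S94A cells and −0.07 in YAP-W1W2 cells. YAP-S94A was highest for 10 of them (71.4%, against 30.5% of all measured genes). MTIF3, an initiation factor, was below vector in all 3, with 882.6 in YAP-WT cells, 1024.9 in YAP-S94A cells and 970.6 in YAP-W1W2 cells, against 1424.6 in vector, and TACO1, a translational activator, was above it, with 987.7, 1050.9 and 1114.5 against 598.1. The 18 measured synthetases had medians of 0.06, 0.29 and −0.19. VARS2, which charges the mitochondrial valine tRNA, had 1711.2 in YAP-WT cells, 4734.2 in YAP-S94A cells and 1795.5 in YAP-W1W2 cells, against 2096.9 in vector, and was the synthetase with the largest difference with YAP-S94A, 2.26-fold. PARS2 had 191.6, 152.3 and 50.9 in the YAP cultures and 253.4 in vector, the value with YAP-W1W2 lying below the floor, so it was at least 3.48-fold lower there.

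Of 13 measured regulators of mitochondrial transcription and biogenesis, 3 were 2-fold higher with YAP-S94A (23.1%, with 10.3% over all measured genes). TFAM, which packages mitochondrial DNA and starts its transcription, had 792.3 in YAP-WT cells, 1594.6 in YAP-S94A cells and 774.8 in YAP-W1W2 cells, against 543.9 in vector, or 2.93-fold with YAP-S94A. PPRC1, a coactivator related to PGC-1, had 774.3, 1461.6 and 856.0 in the YAP cultures and 574.8 in vector. MYC, a transcription factor with ribosome genes among its targets, had 6409.7, 10186.2 and 4993.5 in the YAP cultures and 4846.4 in vector. ESRRA, a nuclear receptor of energy metabolism, was below vector in all 3, with 1073.7, 1437.0 and 1011.6 against 1824.9. Against vector the list median was 0.06 in YAP-WT cells, 0.18 in YAP-S94A cells and −0.06 in YAP-W1W2 cells, beside 0.14, 0.14 and 0.10 for all measured genes. Against YAP-WT it was 0.28 with YAP-S94A and −0.15 with YAP-W1W2. Between YAP-W1W2 and YAP-S94A it was −0.45, with 12 of the 13 below 0 (92.3%, against 56.9% of all measured genes).

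The nuclear genes of the respiratory chain and ATP synthase, whose partners the mitochondrial ribosome makes, did not show the displacement. Over 74 measured genes the median was −0.04 in YAP-WT cells, 0.00 in YAP-S94A cells and −0.18 in YAP-W1W2 cells. YAP-S94A was highest for 21 (28.4%, against 30.5% of all measured genes) and vector for 30 (40.5%, against 22.6%). In YAP-S94A none was 1.5-fold higher and 2 were lower (2.70%), where 23.6% and 14.4% of all measured genes were. The 55 measured cytosolic ribosomal protein genes had medians of 0.06, 0.21 and 0.14, with YAP-S94A highest for 37 of them (67.3%, against 30.5% of all measured genes). With YAP-S94A 2 were 1.5-fold higher (3.64%) and 3 lower (5.45%). These genes too were most often highest with YAP-S94A, with a smaller difference.

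**Figure D4:**
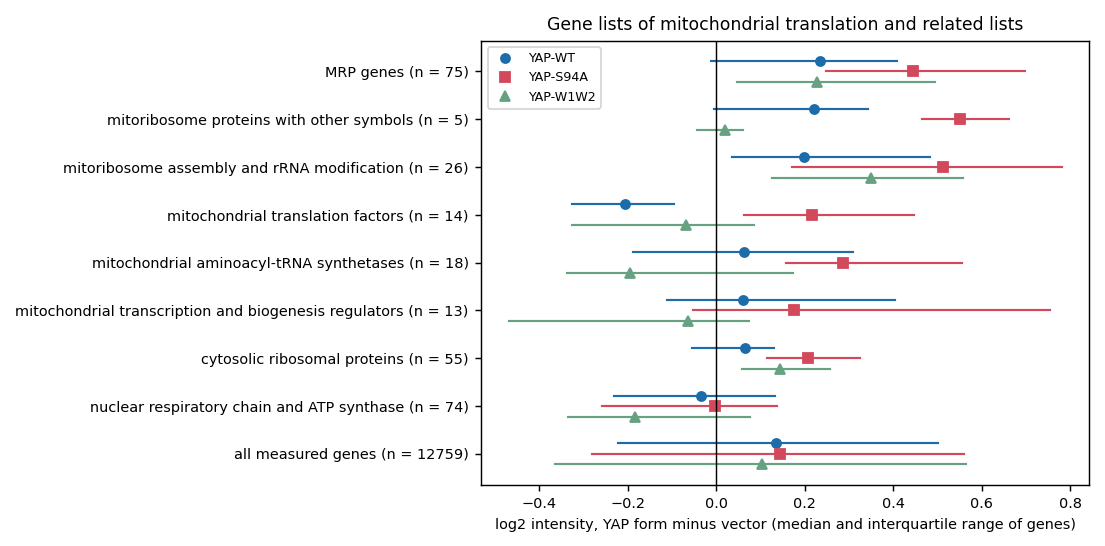
Median (points) and interquartile range over genes (lines) of the log2 intensity difference from vector, for the MRP genes, related gene lists and all measured genes, with each YAP form. The range is over genes of 1 array pair, not over replicates. YAP-S94A lies right of the other forms in each list, at 0.44 for the MRP genes, 0.51 for the assembly list, 0.55 for ribosome proteins with other symbols (with OXA1L) and near 0 for the respiratory chain.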

How the data were processed

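Total RNA was labelled with biotin, per the labels' protocols, and hybridized to 4 Affymetrix arrays, 1 per group. The deposited intensity values are on a linear scale. They were made with GCOS, per the submitters' processing notes, and neither the version nor the target of its scaling is given in the sources used here. Apart from 62 controls there were 54613 probe sets, of which 41091 named 1 gene, 1801 several and 11721 none in the platform annotation. Because the trimmed means lay within 10% of each other (ratio 1.098), the values were used as deposited, set to a floor of 72.9 (the 40th percentile) and taken to log2. Each gene was read from the probe set with the highest mean, and those with a mean of at least 113.6 were called measured. With 1 array per group, differences were counted at 1.5-fold and 2-fold over 6 comparisons, with no test. The number of arrays limits the precision, and no detection calls were used. On simulated data with known differences, the return of the median log2 differences was checked, and the 1.5-fold and 2-fold counts were not. The simulation held no shift of a whole array, so it does not cover the shift of the median gene seen here.

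The alternatives were centring each array on its median gene, quantile normalization, no floor with 16 added, the mean over probe sets, only probe sets whose names lack _s_at and _x_at (suffixes of probe sets that can match several sequences), and no filter on dim genes. Centring on the genes within the MRP intensity range was chosen after seeing the data. The members and lists were chosen with earlier results of these data known. Intensities of all 4 arrays are given for MRP genes at least 2-fold changed, the 5 largest and 5 smallest differences from vector, the 5 brightest and 5 dimmest, the MRPS18 paralogs, and genes whose probe sets disagree. Of the other lists up to 4 genes are named by size of difference, and MRPL51, MRPL52, MRPS33 and the 1.5-fold genes of the direct comparisons are named for a count or value they stand in. Promoters are the first RefSeq entry per symbol (GRCh38.p14), found for 67 of 75 members. Python 3.11.15, numpy 2.4.6, pandas 2.3.3 and matplotlib 3.10.9 were used.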

Additional observations from a re-analysis of the deposited data

How the results depend on the processing

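With 1 array per group no array could be left out. No paired analysis was possible because each group has 1 array. Under 7 alternatives, 160 values of the medians and counts stayed within their limits and 64 moved. For a median, the limits were a binomial interval of the median over the MRP genes. That interval reflects the spread over genes of 1 array pair, not over replicates, and is no test. A count was said to move if it changed more than 1.5-fold, or to or from none. The only median that changed sign was that of YAP-W1W2 against YAP-WT, at −0.0053 with the mean over probe sets and −0.0039 without _s_at and _x_at probe sets. Without the floor and without the filter on dim genes none moved. For the 1.5-fold and 2-fold counts under the alternatives, no share over all measured genes is given here. With the median gene set equal, the median MRP difference from vector became 0.069 with YAP-WT and 0.29 with YAP-S94A, that of YAP-W1W2 against YAP-WT 0.18 and against YAP-S94A −0.13. The 1.5-fold counts became 4 higher and 3 lower (YAP-WT), 16 and 2 (YAP-S94A), 1 lower for YAP-W1W2 against YAP-WT, and 1 higher and 3 lower for YAP-W1W2 against YAP-S94A, with 1 and 3 genes 2-fold higher with YAP-WT and YAP-S94A. Quantile normalization gave medians of 0.068 and 0.28 with YAP-WT and YAP-S94A, 1.5-fold counts of 4 and 3, 15 and 2, and 9 and 4 with YAP-WT, YAP-S94A and YAP-W1W2, 4 lower for YAP-W1W2 against YAP-S94A, and 1, 3 and 1 genes 2-fold higher. Centring on genes of the MRP intensity range gave medians of 0.050, 0.23 and 0.10, 1.5-fold counts of 3 and 3, 14 and 2, and 7 and 4, 1 higher and 3 lower for YAP-W1W2 against YAP-S94A, and 1, 2 and 1 genes 2-fold higher. The mean over probe sets gave a median of 0.36 with YAP-S94A, 1 gene 1.5-fold lower there and 5 with YAP-W1W2, 1 gene 2-fold higher with YAP-WT and 1 2-fold lower with YAP-W1W2, and 1.5-fold lower counts of 1 for YAP-W1W2 against YAP-WT and 4 against YAP-S94A.

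Only 40 genes had a measured probe set without the suffixes _s_at and _x_at, which limits how many could be counted. Even so, the 1.5-fold lower counts against vector rose from 0 to 2 with YAP-S94A and from 2 to 5 with YAP-W1W2. Against YAP-WT they rose from 0 to 2 and from 2 to 5 in the same order. Counts over the 40 against vector were 4 higher (1.5-fold) and 1 lower (2-fold) with YAP-WT. They were 12 higher and 2 lower with YAP-S94A with 1 each at 2-fold, and 5 and 5 with YAP-W1W2 with 1 and 2 at 2-fold. YAP-S94A against YAP-WT had 2 and 2, with 1 2-fold lower, YAP-W1W2 against YAP-WT 1 and 5, and YAP-W1W2 against YAP-S94A 1 2-fold lower. Of the 40, 23 were highest with YAP-S94A (57.5%) and 22 lowest in vector (55%), against 28.2% and 36.6% of all measured genes under this setting. Single genes turned direction with the probe set: against vector with YAP-S94A, MRPL19 was −0.046 and MRPS23 −0.36 over the mean of probe sets, and MRPL42 was −0.61 and MRPS5 −0.19 without the suffixed probe sets, where MRPS5 was also −0.65 with YAP-W1W2 and −0.20 with YAP-S94A against YAP-WT. These turns rest on dimmer probe sets, and the cause was not tested.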
